A study of Mus musculus with 4 samples.

Results

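Thrombospondins and ADAMTS proteases were followed across the cell types of glomeruli isolated from young and aged mice. The set holds 8 genes, Thbs1, Thbs2, Adamts1, Adamts2, Adamts4, Adamts5, Adamts9 and Adamts15, out of 52636 gene IDs in the files. They were taken by symbol, and they had been picked with their levels by cell type and age already known, so their levels and age differences are given here as a description, without a p-value. Where a gene of the 8 is said to pass or miss a threshold, that describes the fit and is no independent support. Another 16 thrombospondin and ADAMTS genes in the files served as part of the pathway lists below. Glomeruli were collected on magnetic beads from untreated mice, dissociated with enzymes, and sequenced as droplet-based 3′ single-cell libraries. The young group and the aged group each held 2 libraries. The labels give the age only as young or aged, with no strain, sex, genotype or number of mice per library, so the tests below measure the spread between these libraries only, which may be technical. The protocol in the labels aimed at about 8000 cells per library, and the files held 5532 to 10621 barcodes per library.

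Thrombospondins and ADAMTS proteins are secreted into the extracellular matrix and share a sequence motif, the thrombospondin type 1 repeat. THBS1 and THBS2 are trimeric matricellular proteins that bind CD36 and CD47 on cells, restrain new vessel growth, and in the case of THBS1 release active TGF-beta from its latent complex. The ADAMTS enzymes are zinc metalloproteases: ADAMTS1, ADAMTS4, ADAMTS5, ADAMTS9 and ADAMTS15 cut large chondroitin sulphate proteoglycans such as versican and aggrecan, and ADAMTS2 trims the amino-terminal propeptide of fibrillar procollagens. TIMP3 is a tissue inhibitor of several of them, and furin-type convertases remove their prodomains. In the glomerulus the matrix that these proteins bind or cut lies in the mesangium and in the basement membrane between podocytes and endothelium.

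The 4 libraries held 124600182 UMIs (unique molecular identifiers, counts of captured RNA molecules), and 28000 cells were kept. Cells were grouped into 38 clusters with the 8 genes left out of the genes used for clustering, and clusters were named from marker genes, so that "podocytes" below means podocyte-like cells, and likewise for the other classes. All levels are CPM: the UMIs of a gene summed over the cells of a class in a library, scaled to the same total UMI count in every such sum. Young replicate 2 stood apart: 34.4% of its kept cells fell in a named class, against 88.3% to 92.9% of the other 3 libraries, and 44.4% lay in clusters with markers of 2 unrelated cell types. The fitted differences of the 8 genes are therefore also given without it. Libraries shared 9 to 31 cell barcodes per pair. The 10 podocyte markers summed to 21964 to 23951 CPM in the podocytes, the 10 endothelial markers to 11061 to 13302 in the endothelial cells and the 8 mesangial markers to 10120 to 12686 in the mesangial cells, with none of them at 0. Cluster 23, with 28 to 47 cells per library, had the highest level of the parietal epithelial markers (cells that line Bowman's capsule). None of those markers was among its 10 leading genes, and Tagln, a smooth muscle gene, was, so it is called by its number. By the naming rule such a cluster is left out, and cluster 23 was kept as an exception. Cells with markers of an unrelated class, 60.1% of this cluster, were left out. That kept 28 of 50 and 47 of 198 cells in young against 37 of 56 and 37 of 69 in aged libraries. The smooth muscle and renin class, cluster 20, lost 43.3% of its cells in this way. It kept 68 of 71 and 74 of 243 cells in young against 55 of 57 and 35 of 38 in aged libraries.

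All 8 genes are protein coding, at the following positions in GENCODE vM21 on GRCm38. Adamts1 (ENSMUSG00000022893, chr16:85793827-85803113) and Adamts5 (ENSMUSG00000022894, chr16:85856173-85901828) lie 53059 bases apart on the minus strand with no protein-coding gene between them. Thbs1 (ENSMUSG00000040152) is at chr2:118111876-118127133 on the plus strand, and Thbs2 (ENSMUSG00000023885) at chr17:14665500-14694235 on the minus strand. Adamts2 (ENSMUSG00000036545) is at chr11:50602084-50807573 and Adamts4 (ENSMUSG00000006403) at chr1:171250421-171260637, both on the plus strand. Adamts9 (ENSMUSG00000030022) is at chr6:92772699-92943492 and Adamts15 (ENSMUSG00000033453) at chr9:30899155-30922452, both on the minus strand. Thbs1, Adamts2 and Adamts9 overlap predicted or noncoding genes on the opposite strand. Whether the counting used strand is not given in the sources used here, so reads of such pairs may not have been told apart.

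RefSeq promoter sequences were at hand for 4 of the 8 genes (GRCm38.p6). Those of Adamts1, Adamts9 and Thbs2 are shown because their genes differ in where they were found: Adamts1 in all 5 fitted classes, Adamts9 in endothelial, smooth muscle and mesangial cells, and Thbs2 with 1501 of its 1622 UMIs in endothelial cells. Each runs 5′ to 3′ over the 250 bases before the transcript start, with capitals at matches, on either strand, to a GC box (GGGCGG) or a TATA element (TATAAA).
Adamts1, chr16:85803114-85803363, minus strand: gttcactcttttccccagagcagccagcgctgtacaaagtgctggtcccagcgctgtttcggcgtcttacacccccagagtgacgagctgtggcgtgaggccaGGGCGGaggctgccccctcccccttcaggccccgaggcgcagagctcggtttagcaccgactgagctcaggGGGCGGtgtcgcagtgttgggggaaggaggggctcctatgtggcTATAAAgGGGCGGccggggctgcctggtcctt
Adamts9, chr6:92943535-92943784, minus strand: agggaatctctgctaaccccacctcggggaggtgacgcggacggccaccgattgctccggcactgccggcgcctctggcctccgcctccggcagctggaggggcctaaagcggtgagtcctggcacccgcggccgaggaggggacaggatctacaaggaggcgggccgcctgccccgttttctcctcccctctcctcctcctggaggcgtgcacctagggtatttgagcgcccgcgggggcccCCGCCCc
Thbs2, chr17:14694263-14694512, minus strand: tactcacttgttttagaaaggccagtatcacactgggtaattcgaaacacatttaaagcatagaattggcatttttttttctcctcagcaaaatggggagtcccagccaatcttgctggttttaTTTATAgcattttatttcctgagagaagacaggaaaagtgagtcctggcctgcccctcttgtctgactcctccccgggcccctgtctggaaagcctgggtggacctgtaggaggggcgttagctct
The Adamts1 promoter had 65.6% G and C and 15 CpG pairs, with 3 GC boxes and a TATA element whose first base lies 32 bases before the start. The Adamts9 promoter had 71.2% G and C and 22 CpG pairs, with a single GC box 7 bases before the start. The Thbs2 promoter had 46.8% G and C and 3 CpG pairs, no GC box, and a TATA element on the opposite strand 126 bases before the start. Over 32851 promoters of the same length the median was 52.4% G and C, 32.7% held a GC box and 12.4% a TATA element. Matches to TGANTCA (AP-1, 6.75% of promoters), TGACGTCA (CRE, 1.55%) and GGAATG (TEAD, 12.6%) were also searched on both strands, and none lay in these 3 windows. A match is a string of letters and was not tested as a site.

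**Figure D1:**
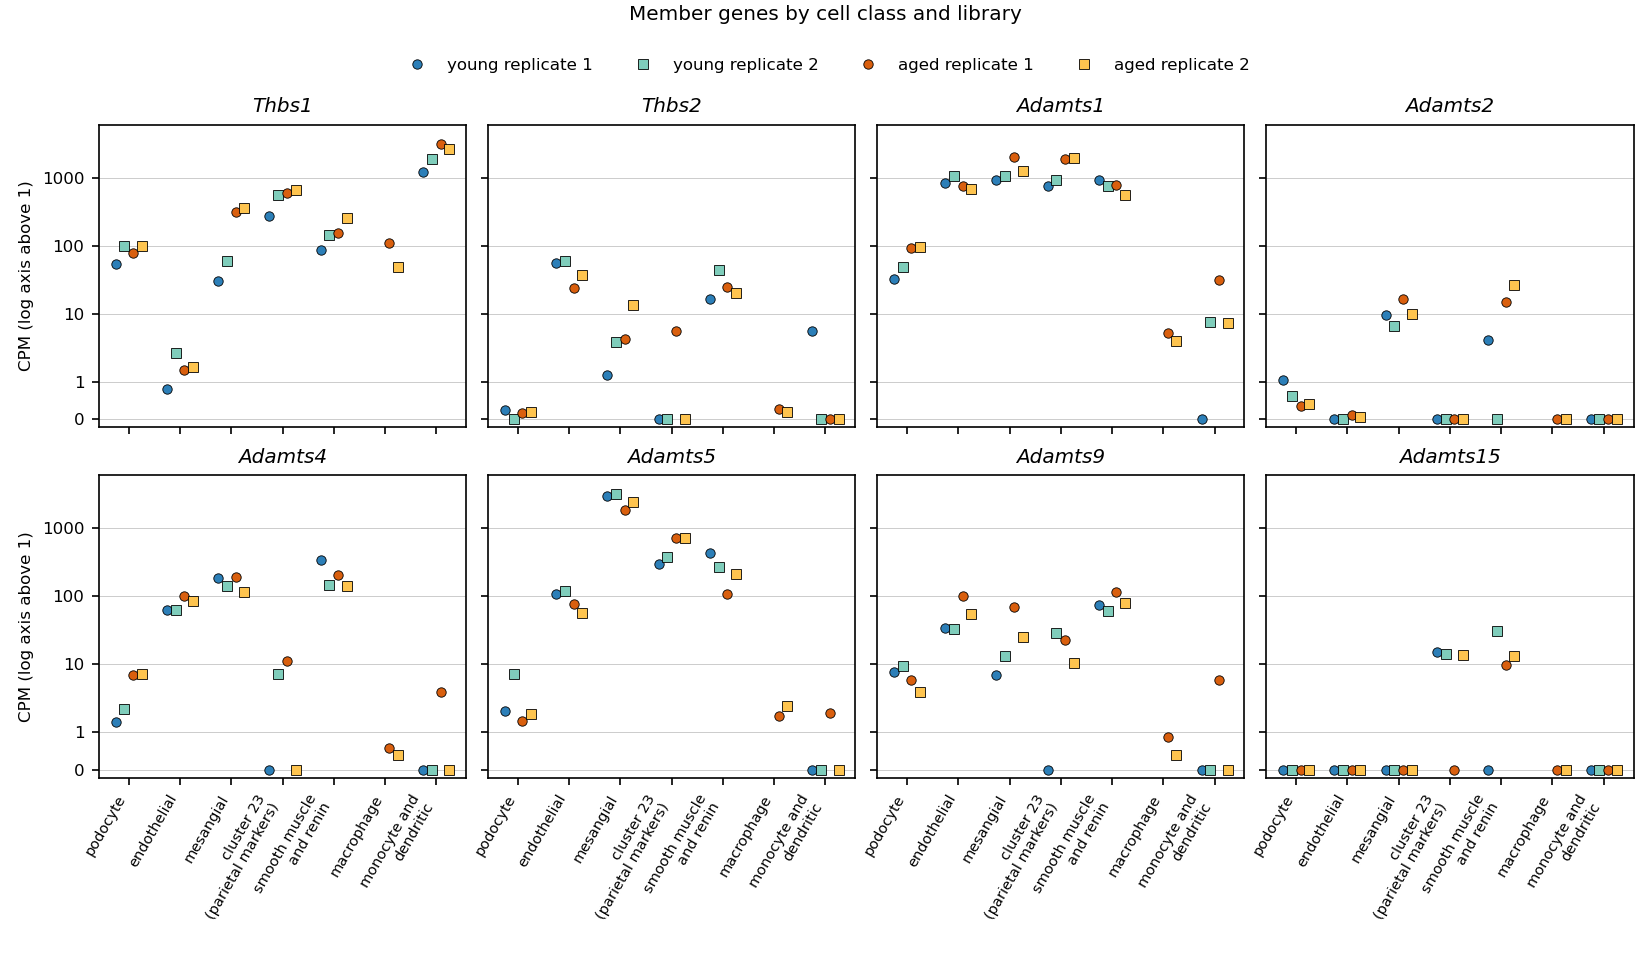
Level of each of the 8 genes (vertical axis, CPM of the class sum, log axis above 1) in 7 cell classes for the 4 libraries, young in blue and green, aged in brown and yellow; a class with under 20 cells in a library has no point. Thbs1 is highest in monocytes, Thbs2 in endothelial cells, Adamts5 in mesangial cells, and Adamts1 spans 556 to 1996 in 4 of the classes.

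Among the thrombospondins, Thbs1 was found in blood-derived and matrix-forming cells and was near absent from endothelium. Its highest levels were in the monocyte and dendritic class, at 1216 CPM in young replicate 1, 1886 in young replicate 2, 3167 in aged replicate 1 and 2683 in aged replicate 2. These rest on 52, 31, 127 and 71 cells, and the groups did not overlap. Thbs1 was one of the 10 leading genes of that cluster, which was led by the classical monocyte genes Chil3, Ccr2 and Ly6c2. Cluster 23 came next among the classes with at least 20 cells in every library. Endothelial cells held 63 UMIs in all, 0.80 to 2.61 CPM. That endothelial level was 0.0474% to 0.139% of the level in the monocyte class, while the monocyte and dendritic markers stood at 2.08% to 6.11% of theirs. Neutrophils of the aged libraries had 2176 and 923, on 68 and 25 cells, and B cells and T and NK cells held 0 Thbs1 UMIs.

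In mesangial cells, the contractile pericytes that hold the capillary loops and lay down mesangial matrix, Thbs1 stood at 30.5 and 60.0 CPM in young against 309 and 353 in aged libraries. The groups did not overlap. The fitted log2 difference was 3.03 (standard error 0.24), an 8.16-fold higher level in the aged mesangial cells, and 3.53 without young replicate 2. It lay between 2.58 and 3.69 over the 12 alternatives. After every cell was thinned to 1000 UMIs, 1.94% and 6.51% of young and 22.3% and 21.8% of aged mesangial cells had a Thbs1 UMI. In endothelial cells, where Thbs1 was near absent in these data, the share was 0.12% to 0.25%. The unthinned shares were 13.8% and 18.3% in young and 52.6% and 59.7% in aged mesangial cells, at median depths of 3725 to 6365 UMIs per cell.

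The age groups lay in different mesangial clusters. Cluster 17, led by Gucy1a3, Sfrp2 and Pdgfrb, held 238 and 164 young cells against 35 and 16 aged ones, and cluster 10, led by Cxcl13, Serpine2 and Itga8, held 22 and 11 against 600 and 461. Within cluster 17 Thbs1 was at 31.0 and 58.5 CPM in young against 110 and 135 in aged libraries, the last on 15 and 11 UMIs. Within cluster 10 it was at 316 and 357 in the aged libraries, and the young libraries held 1 and 4 UMIs, or 17.2 and 96.0 CPM. Inside each cluster, then, the aged pair exceeded the young pair, on few counts in the libraries with few cells of that cluster.

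Markers of other cells were measured in the same mesangial sums. The 6 macrophage markers stood at 0.0434% to 0.0947% of their mean level in macrophages, and the 6 monocyte and dendritic markers at 0.0790% to 0.176%, whereas Thbs1 stood at 2.51% to 13.2% of its monocyte level. The 6 smooth muscle and renin markers summed to 17.2 and 27.6 CPM in young against 219 and 164 in aged libraries, at most 0.719% of their mean in their own class, with Ren1 at 114 in aged replicate 1 and Tagln at 107 in aged replicate 2. The 8 parietal markers summed to 348 and 308 in young against 2019 and 858 in aged libraries, nearly all of it Akap12, with Pax8, Pax2, Krt8, Krt18 and Cdh6 at 0 in all 4. A list of 20 genes induced by tissue dissociation summed to 48468 and 53542 in young against 36686 and 46394 in aged mesangial cells. The part of these lists in the Thbs1 difference was not tested.

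Podocytes, the epithelial cells that carry the filtration slits, held Thbs1 at 53.9 and 98.4 CPM in young against 78.9 and 100.2 in aged libraries. The groups overlapped, with young replicate 1 lowest, and the log2 difference was 0.34 (0.18). It fell to -0.05 without young replicate 1 and rose to 0.75 without young replicate 2, so its sign rests on 1 library. Cluster 23 had 277 and 548 in young against 603 and 655 in aged libraries, a log2 difference of 0.61 (0.24), and 1.18 without young replicate 2 and 0.25 without young replicate 1. Smooth muscle and renin cells, of the arterioles at the glomerular pole, had 86.4 and 145 in young against 156 and 255 in aged libraries, a log2 difference of 0.85 (0.32), on 21 to 38 UMIs per library. That difference was 1.27 without young replicate 2, 0.52 without young replicate 1 and 0.53 without aged replicate 2. In these last 2 classes the aged pair exceeded the young pair.

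Thbs2, the second thrombospondin, was found in endothelial cells, where it was lower in the aged libraries, and on 22 UMIs in smooth muscle and renin cells, at 16.5 to 44.0 CPM. In endothelial cells it stood at 55.5 and 58.8 CPM in young against 24.1 and 37.3 in aged libraries, which did not overlap. The log2 difference was -0.77 (0.17), and -0.78 without young replicate 2. Leaving out aged replicate 1 brought it to -0.48, which missed the adjusted threshold. Podocytes held 4 Thbs2 UMIs in all, and mesangial cells 89, with 1.27 and 3.81 CPM in young against 4.22 and 13.6 in aged libraries, a log2 difference of 2.04 (0.76). The mesangial difference was 1.34 without young replicate 1, 2.87 without young replicate 2, and 1.01 when cells with markers of a second class were kept. Mesangial Thbs2 stood at 2.29% and 6.48% of its endothelial level in young against 17.5% and 36.4% in aged libraries. Endothelial markers in the same sums stood at 9.59% and 10.2% of theirs in young against 11.4% and 15.2% in aged. The part of endothelial RNA in this difference was not tested.

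Within the endothelium, Thbs2 UMIs were concentrated in cluster 9, led by Tspan8, Thbs2, Edn1 and Fbln2. There its level was 496 and 362 CPM in young against 215 and 290 in aged libraries, on 187 to 371 UMIs each. Cluster 31, led by Fbln2, Egfl8 and Vegfc, had 155 over all libraries, cluster 30, a cluster of dividing cells, had 39.8, and the other 10 endothelial clusters had 3.03 to 12.8. Of cluster 9, 192 and 186 cells were young and 518 and 324 aged. Inside the cluster that held most of the gene's UMIs both aged libraries were thus below both young ones. Cluster 31 had 76.1 and 126 in young against 94.3 and 231 in aged libraries, the young values on 5 and 6 UMIs, and there the groups overlapped.

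**Figure D2:**
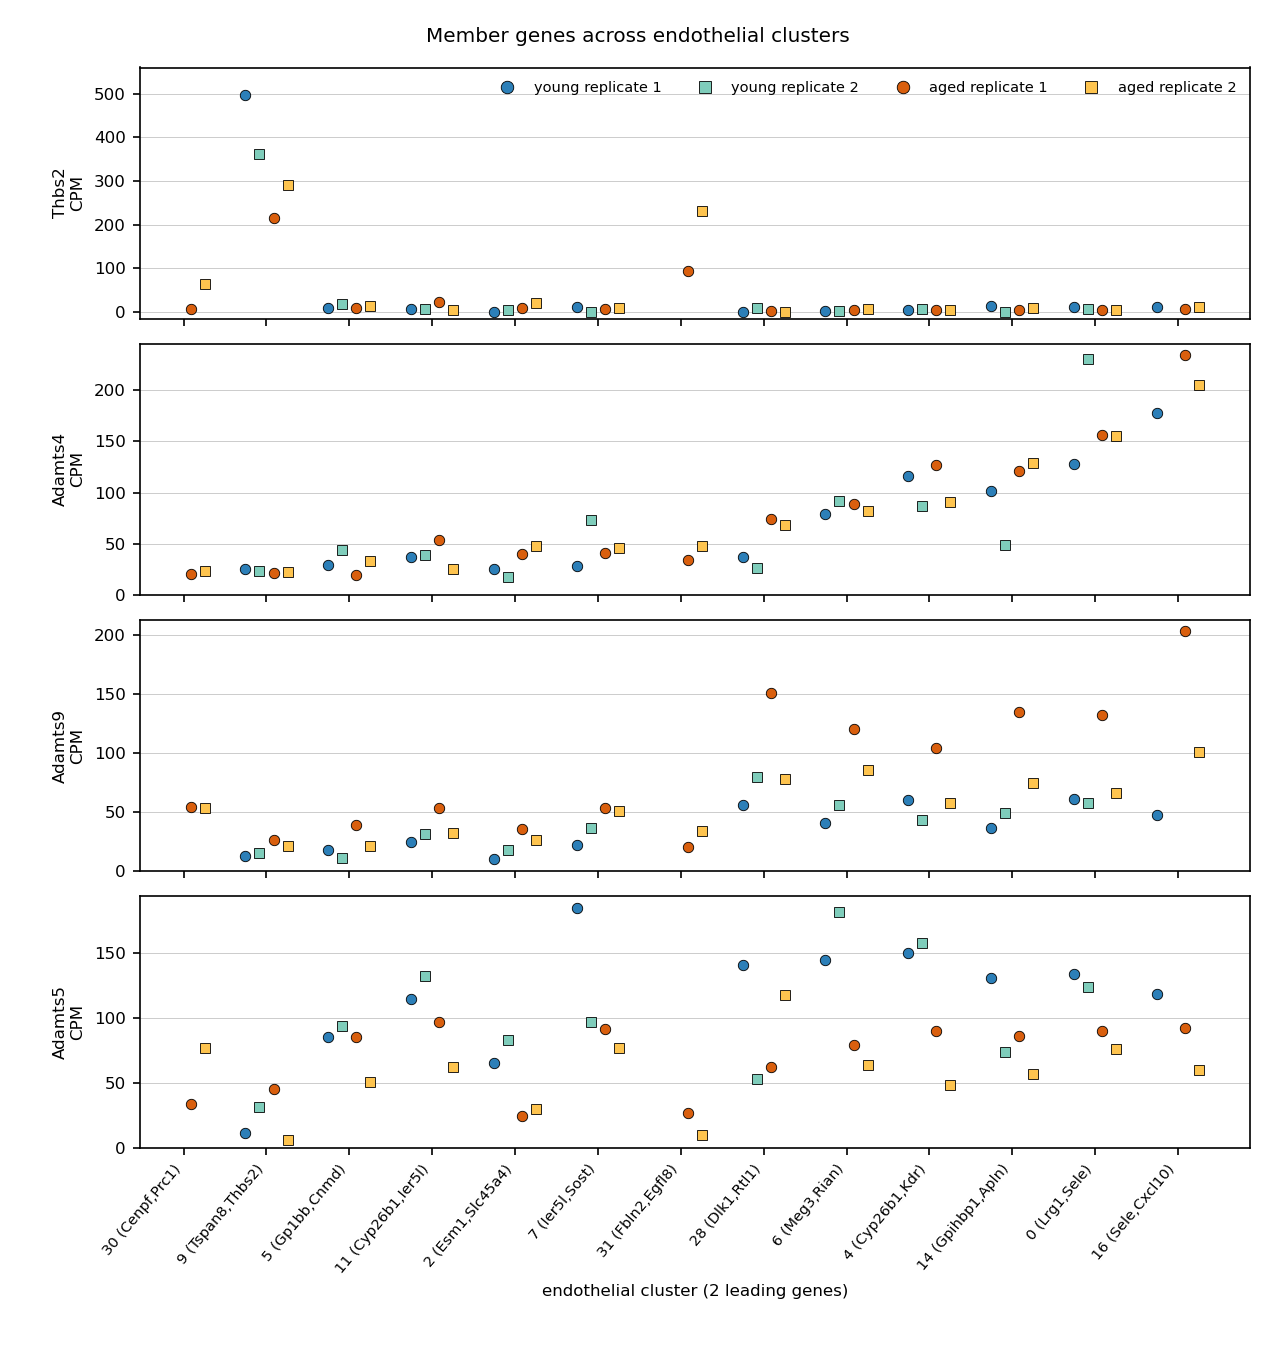
Levels of Thbs2, Adamts4, Adamts9 and Adamts5 (vertical axes, CPM) in 13 endothelial clusters, each named with its 2 leading genes, for the 4 libraries with at least 20 cells of the cluster. Thbs2 rises above 200 only in clusters 9 and 31, Adamts4 is highest in the Sele clusters 0 and 16, and aged replicate 1 has the highest Adamts9 level in most clusters.

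Adamts1, a secreted protease with anti-angiogenic and versican-cutting activity, was found in all 5 fitted classes, with aged libraries higher in some and lower in others. Podocytes had 32.0 and 49.1 CPM in young against 91.6 and 96.7 in aged libraries, which did not overlap. The log2 difference was 1.32 (0.16), a 2.50-fold higher level in the aged podocytes, and 1.58 without young replicate 2. Restricting cells to at most 10% mitochondrial UMIs lowered it to 0.87, and the gene then missed the adjusted threshold of 0.05. Among podocyte clusters, cluster 8, led by Clic3 and Nphs1, had 6.34 to 11.5 in the 4 libraries. Cluster 12, led by Gas1, Nupr1 and Gadd45a, had 48.6 and 62.7 in young against 109 and 125 in aged libraries, and cluster 3 had 40.9 and 54.6 in young against 94.4 and 44.2 in aged. Cluster 12 held 144 of 1748 and 133 of 583 podocytes when young, and 535 of 980 and 378 of 651 when aged.

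Endothelial RNA in the podocyte sums was measured by the endothelial markers. Adamts1 in podocytes stood at 3.76% and 4.66% of its endothelial level in young against 12.0% and 14.3% in aged libraries, whereas the endothelial markers stood at 0.306% to 0.884% of theirs. The dissociation list summed to 47757 and 50687 CPM in young against 49293 and 54449 in aged podocytes, with Fos at 10834 and 10766 against 9308 and 9075, and Atf3 at 2300 and 2477 against 3808 and 3965. The part of that list, or of endothelial RNA, in the Adamts1 difference was not tested.

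In cluster 23 Adamts1 had 749 and 932 CPM in young against 1911 and 1950 in aged libraries, a log2 difference of 1.20 (0.17). It was 1.36 without young replicate 2, and it missed the adjusted threshold without young replicate 1, at 1.10. The dissociation list was lower there when aged, with 26177 and 26168 in young against 11858 and 17027 in aged libraries, and the 8 parietal markers summed to 2150 and 2696 when young against 3862 and 3567 when aged. The 6 smooth muscle and renin markers in cluster 23 summed to 1798 and 2035 in young against 3135 and 2635 in aged libraries. That was 5.89% to 10.3% of their mean in their own class. The part of these lists in the Adamts1 difference, or in that of Adamts5 below, was not tested. Mesangial cells had 936 and 1067 in young against 1996 and 1240 in aged libraries, a log2 difference of 0.81 (0.23) that was 0.40 without aged replicate 1 and 0.90 without young replicate 2. Endothelial cells had 850 and 1052 in young against 765 and 676 in aged libraries, a log2 difference of -0.27 (0.17), with both aged libraries below both young ones, and -0.16 without young replicate 2. Smooth muscle and renin cells had 938 and 753 against 770 and 556, which overlapped, and the difference of -0.28 (0.19) ranged from -0.54 to -0.05 when single libraries were left out, with -0.43 without young replicate 2. Macrophages of the aged libraries, with 565 and 498 cells, had 5.19 and 4.03, below 1% of the endothelial level.

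Adamts4, also a versican and aggrecan protease, was present in mesangial, smooth muscle and endothelial cells. In endothelial cells it stood at 63.0 and 62.0 CPM in young against 100.1 and 84.6 in aged libraries, which did not overlap, with a log2 difference of 0.69 (0.15) and 0.63 without young replicate 2. It missed the adjusted threshold without aged replicate 1, at 0.57. The clusters led by the adhesion molecule gene Sele had the most: cluster 16, led by Sele and Cxcl10, had 178 and 179 in young against 235 and 205 in aged libraries, and cluster 0, led by Lrg1 and Sele, had 128 and 231 in young against 156 and 155 in aged. Of cluster 16, 27 and 17 cells were young and 579 and 320 aged, and of cluster 0, 51 and 34 were young and 892 and 575 aged. Inside cluster 0 the groups overlapped. In clusters 4 and 11, which held 611 and 512 cells of young replicate 1, Adamts4 overlapped as well, with 117 and 86.8 against 127 and 91.2 in cluster 4.

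Mesangial cells had Adamts4 at 188 and 144 CPM in young against 192 and 115 in aged libraries. The log2 difference of -0.00 (0.25) ranged from -0.46 to 0.35 when single libraries were left out (-0.19 without young replicate 2), so it has no stable sign. Smooth muscle and renin cells had 346 and 145 in young against 205 and 141 in aged libraries, which overlapped, with a difference of -0.43 (0.36). Its sign changed too, from -0.92 without young replicate 2 to 0.33 without young replicate 1. Podocytes held 92 Adamts4 UMIs, at 1.44 and 2.20 CPM in young against 7.02 and 7.16 in aged libraries, a log2 difference of 2.10 (0.39). This was 2.28% and 3.55% of the endothelial level in young against 7.02% and 8.46% in aged podocytes, above the 0.306% to 0.884% of the endothelial markers. The part of endothelial RNA in the podocyte difference was not tested. Of the 92 UMIs, 75 were in podocyte cluster 12. The difference missed the adjusted threshold when young replicate 1 was left out, at 1.76, and under the mitochondrial limit of 10%, at 1.72, and was 2.30 without young replicate 2.

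Adamts5, the main aggrecanase of cartilage in the mouse, was highest in mesangial cells by a wide margin and was found in nearly every one of them. It stood at 2950 and 3237 CPM in young against 1854 and 2399 in aged libraries, which did not overlap. The log2 difference was -0.43 (0.18), -0.38 without young replicate 2, -0.28 without aged replicate 1, and -0.08 when cells with markers of a second class were kept. Of the cells of mesangial cluster 17, which held most of the young cells, 33.5% carried such markers. The named classes held 49.2% and 42.5% of the Adamts5 UMIs of young libraries against 77.7% and 71.1% of those of aged libraries. In young replicate 1, 359 cells outside the classes held 5658 of its 11143 Adamts5 UMIs, at 1666 CPM. These UMIs are not in the comparison of ages, and their part in the difference was not tested. After thinning to 1000 UMIs, 91.1% and 92.3% of young and 77.8% and 87.0% of aged mesangial cells had an Adamts5 UMI, and 97.5% to 99.6% had one before thinning.

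In endothelial cells Adamts5 was at 109 and 118 CPM in young against 76.1 and 56.2 in aged libraries, which did not overlap. The log2 difference was -0.65 (0.15), with and without young replicate 2, and it missed the adjusted threshold without aged replicate 2, at -0.45. This level was 2.34% to 4.11% of the mesangial one. The mesangial markers stood at 0.277% and 0.488% of theirs in young against 0.944% and 1.13% in aged endothelial sums. The part of mesangial RNA in the endothelial difference was not tested. Cluster 9, the Thbs2 cluster, had the least Adamts5 of the clusters with over 200 cells, 23.4, and cluster 4, led by Cyp26b1 and Kdr, the most, at 120, with 150 and 158 in young against 89.6 and 48.3 in aged libraries. Cluster 23 went the other way, with 300 and 377 in young against 722 and 713 in aged libraries and a log2 difference of 1.08 (0.20). That difference was 1.25 without young replicate 2, and it missed the adjusted threshold without young replicate 1, at 0.97, and without aged replicate 2, at 1.09. Its mesangial markers stood at 4.31% and 4.56% of the mesangial level in young against 6.84% and 7.43% in aged libraries. Adamts5 stood at 10.2% and 11.7% against 38.9% and 29.7%. The part of mesangial RNA in the cluster 23 difference was not tested. Smooth muscle and renin cells had 440 and 273 against 107 and 214, a log2 difference of -1.15 (0.32), on 22 to 107 UMIs per library. It was -0.67 without aged replicate 1, -0.76 without young replicate 1 and -1.45 without young replicate 2. Podocytes had 56 Adamts5 UMIs, at 1.44 to 7.23 CPM, and their difference ranged from -2.04 without young replicate 1 to -0.34 without young replicate 2.

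Adamts9, a versican protease needed for vessel and heart development, was present in endothelial, smooth muscle and aged mesangial cells. Endothelial cells had 34.6 and 33.5 CPM in young against 100.9 and 55.2 in aged libraries, which did not overlap. The log2 difference was 1.32 (0.20), a 2.49-fold higher level, and 1.25 without young replicate 2. Leaving out aged replicate 1, the highest library, brought it to 0.83. Aged replicate 1 exceeded both young libraries in clusters 0, 4, 5, 6, 7, 9, 11, 14 and 16, and in cluster 4 aged replicate 2, at 57.9, lay between the young values of 60.5 and 43.4. The highest level was again in cluster 16, at 203 and 101 when aged against 47.4 and 27.5 when young, the last on 2 UMIs.

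Mesangial cells had Adamts9 at 7.0 and 13.3 CPM in young against 69.9 and 25.3 in aged libraries, a log2 difference of 2.41 (0.55). It was 2.86 without young replicate 2, 1.48 without aged replicate 1, and missed the adjusted threshold without either young library and with DESeq2. The young values rest on 11 and 14 UMIs. Endothelial markers in these sums stood at 9.59% and 10.2% of the endothelial level in young against 11.4% and 15.2% in aged libraries, led by Plvap and Ehd3. Adamts9 stood at 20.3% and 39.8% in young against 69.3% and 45.8% in aged. The part of endothelial RNA in the mesangial difference was not tested. Podocytes had 7.57 and 9.43 in young against 5.94 and 3.89 in aged libraries, a log2 difference of -0.69 (0.30), with both aged libraries lower, and it was -0.59 without young replicate 2 and -0.45 without aged replicate 2. Smooth muscle and renin cells had 74.0 and 61.7 against 117 and 80.4, a difference of 0.62 (0.34) that was 0.31 without aged replicate 1 and 0.50 without young replicate 2.

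The 2 remaining genes were rare. Adamts2, the procollagen N-proteinase, had 139 of its 164 UMIs in the classes in mesangial cells, at 9.54 and 6.67 CPM in young against 16.4 and 9.83 in aged libraries. The log2 difference of 0.76 (0.41) fell to 0.32 without aged replicate 1 and was 0.56 without young replicate 2. Endothelial cells held 3 Adamts2 UMIs. Adamts15, another versican protease, had 19 UMIs in the classes, 8 in cluster 23 and 11 in smooth muscle and renin cells, too few to compare ages.

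**Figure D3:**
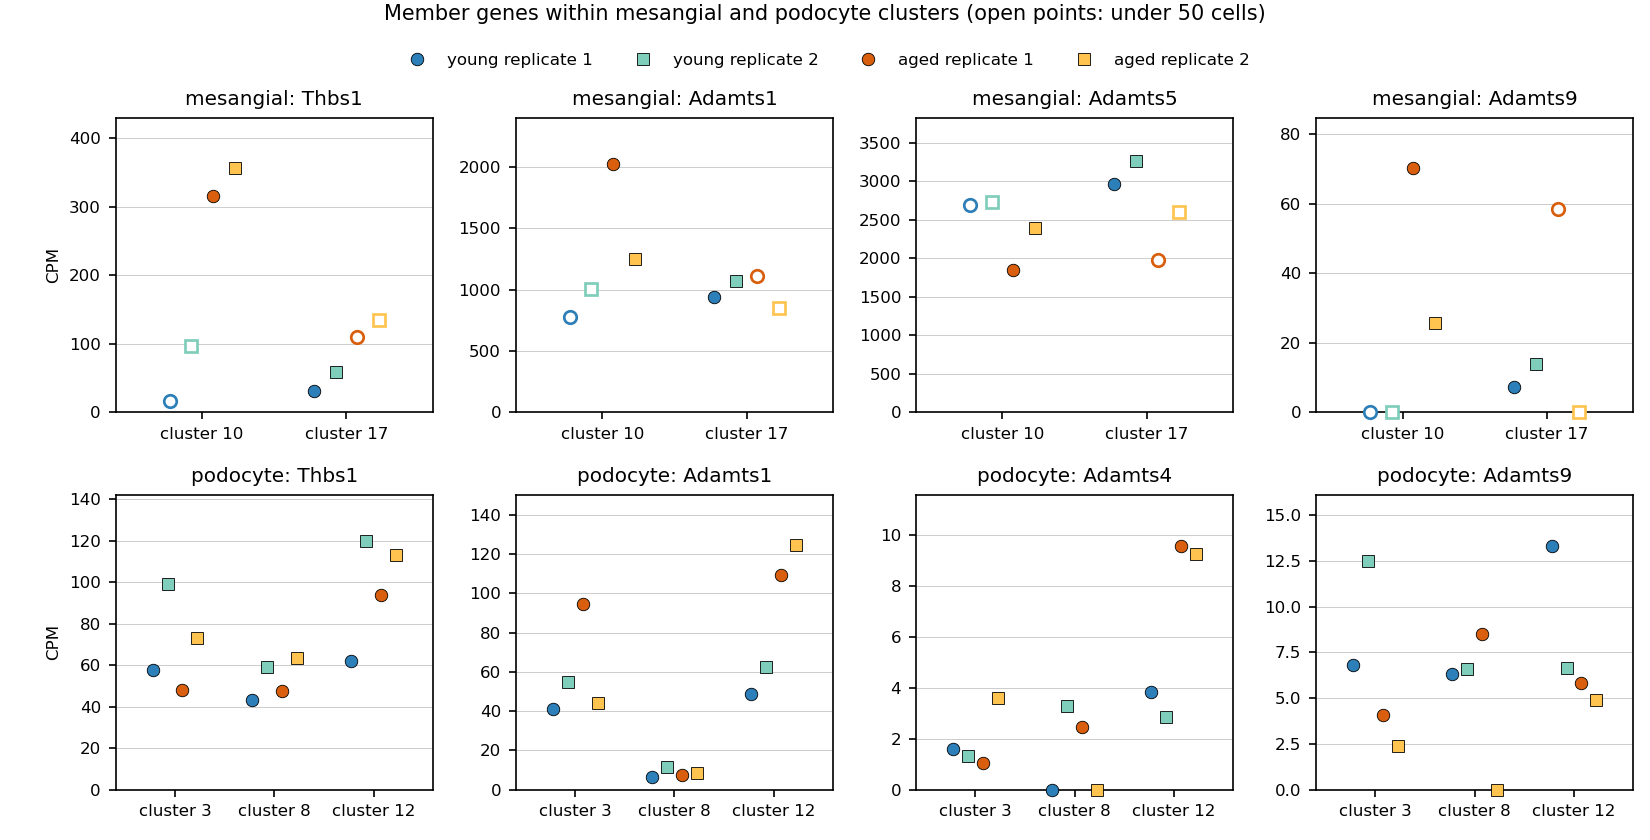
Levels (vertical axes, CPM) of Thbs1, Adamts1, Adamts5 and Adamts9 in mesangial clusters 10 and 17, and of Thbs1, Adamts1, Adamts4 and Adamts9 in podocyte clusters 3, 8 and 12, for each library; open points stand for under 50 cells. Thbs1 in aged cells of cluster 10 is at 316 and 357, and in podocytes Adamts4 exceeds 9 only in aged cells of cluster 12.

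With a filter that drops genes of low count, 5 of the 8 genes were fitted in podocytes, 6 in endothelial cells, 7 in mesangial cells, 3 in cluster 23 and 5 in smooth muscle and renin cells. In podocytes 2 of the 8 passed the threshold upward (Adamts1 and Adamts4), where 3.96% of 10854 genes did, and 0 downward, where 2.07% did. Endothelial cells had 2 upward (Adamts4 and Adamts9), against 4.41% of 13042 genes, and 2 downward (Thbs2 and Adamts5), against 2.27%. In mesangial cells 2 passed upward (Thbs1 and Adamts9), against 3.38% of 10516 genes, and 0 downward, against 1.84%. In cluster 23 also 2 passed upward (Adamts1 and Adamts5), against 1.97% of 3150 genes, and 0 downward, against 2.0%. Smooth muscle and renin cells had 0 in either direction by edgeR and 0 by DESeq2, and 2 at an unadjusted p under 0.05, where 0.698% of 3581 genes passed upward and 0.335% downward.

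Of the fitted genes, the aged pair exceeded the young pair for 2 in podocytes (18.4% of all genes tested), 2 in endothelial cells (15.1%), 5 in mesangial cells (19.3%), 3 in cluster 23 (23.6%) and 2 in smooth muscle and renin cells (18.7%). It lay under the young pair for 2 in podocytes (27.9% of all genes tested), 3 in endothelial cells (37.2%), 1 in mesangial cells (35.3%), 0 in cluster 23 (23.0%) and 1 in smooth muscle and renin cells (24.8%). The 8 were selected on these levels, so nothing is read from the counts of passing or separated genes. Differences between classes were not tested. The median log2 difference over all genes of a class lay within 0.011 of 0.

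**Figure D4:**
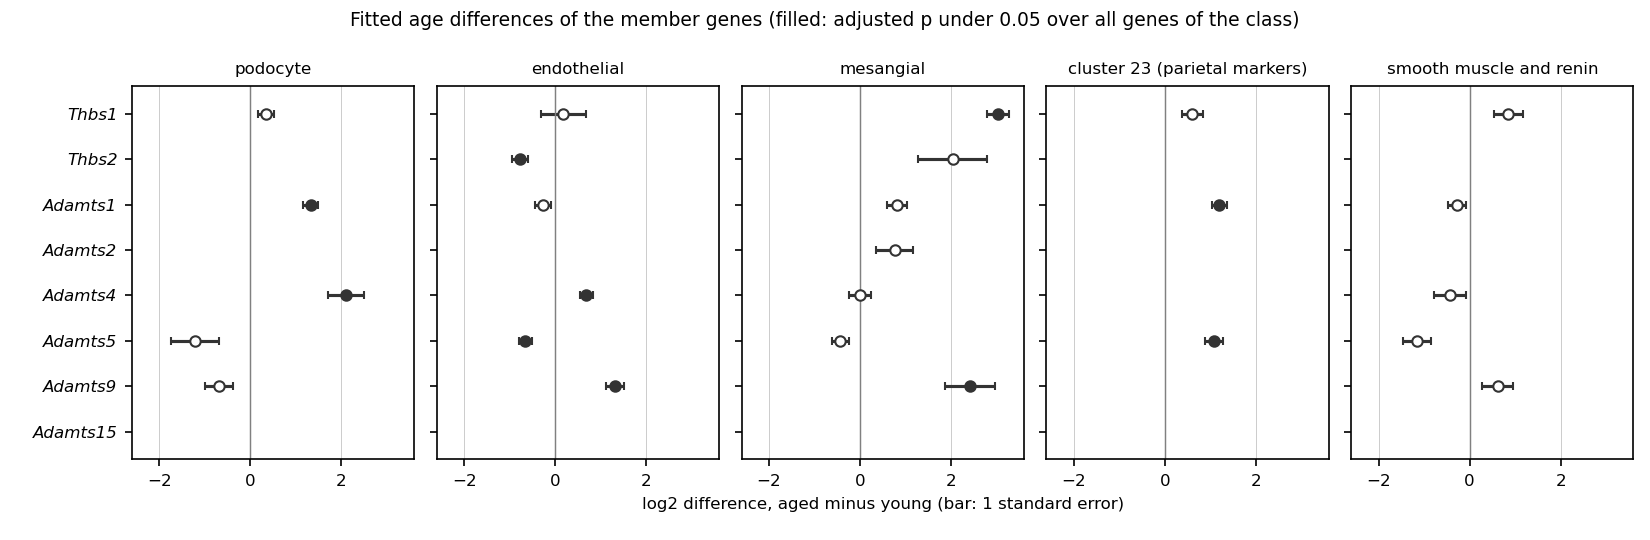
Fitted log2 difference, aged minus young (horizontal axis, bars of 1 standard error), of each gene that passed the filter, in 5 cell classes; filled points had an adjusted p under 0.05 over all genes of the class. Adamts5 is at -0.65 in endothelial cells and 1.08 in cluster 23, and the largest difference is Thbs1 in mesangial cells, at 3.03.

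Receptors, inhibitors and substrates of these proteins were then tested, in lists of 77 genes that do not contain the 8. These lists too were chosen with earlier results of these data known. Their p-values therefore describe these libraries and are no independent support. A gene was named when its adjusted p was under 0.05, its groups did not overlap, and its mean level was at least 10% of that in any other class. Of 15 thrombospondin receptors and partners, 13 were tested in endothelial cells, of which 1 rose and 1 fell, 12 in mesangial cells, of which 2 rose and 1 fell, and 8 in podocytes, of which none passed. Itga4, the integrin alpha 4 chain, fell in aged mesangial cells from 427 and 502 CPM to 231 and 224 (log2 difference -0.92, standard error 0.15, adjusted p = 0.00722 by edgeR's quasi-likelihood test). Itgav, the alpha V integrin chain that pairs with beta 3 to bind THBS1, was at 101 and 96.2 in young against 171 and 139 in aged mesangial cells (0.77, 0.17, adjusted p = 0.0296 by edgeR). Tgfb1, the latent cytokine that THBS1 can release, rose there from 120 and 93.3 to 252 and 155 (1.04, 0.24, adjusted p = 0.0357 by edgeR). These 3 mesangial calls were lost when either young library was left out.

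In endothelial cells Itgb3, the beta 3 integrin chain, rose from 5.92 and 10.2 CPM to 19.7 and 14.2 (log2 difference 1.26, standard error 0.24, adjusted p = 0.00102 by edgeR). Itga6, a laminin-binding integrin chain, fell from 142 and 172 to 82.8 and 88.5 (-0.74, 0.14, adjusted p = 0.0011 by edgeR), a call lost without aged replicate 1. The CD36 and CD47 receptors of the list did not pass in any class. Among the 12 inhibitors, cofactors and processing enzymes, 8 were tested in endothelial cells, of which 3 rose and none fell, and 8 in podocytes, of which 1 rose. Timp1, a metalloproteinase inhibitor, rose in both: in podocytes from 0.78 and 1.26 to 5.58 and 7.77 (2.85, 0.46, adjusted p = 9.84e-05 by edgeR), and in endothelial cells from 6.24 and 6.54 to 11.5 and 12.8 (1.05, 0.23, adjusted p = 0.00427 by edgeR). Timp2 rose in endothelial cells from 89.1 and 87.9 to 122 in both aged libraries (0.59, adjusted p = 0.00925 by edgeR), a call lost without either aged library. Furin, a convertase that removes ADAMTS prodomains, rose from 66.5 and 71.9 to 91.0 and 87.2 (0.49, adjusted p = 0.0307 by edgeR), a call that DESeq2 and 3 of the 4 fits without 1 library did not keep. Timp3 did not pass in any class.

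Of 27 listed substrates, 11 were tested in mesangial cells, of which 3 rose and none fell, and 10 in endothelial cells, of which 2 rose and 1 fell. Dcn, decorin, a small leucine-rich proteoglycan, rose in mesangial cells from 5.73 and 0.95 CPM to 30.7 and 45.8 (log2 difference 3.43, standard error 0.44, adjusted p = 0.00185 by edgeR). Nid2, a basement membrane nidogen, rose from 20.4 and 21.9 to 39.4 and 55.2 (1.28, 0.23, adjusted p = 0.0131 by edgeR), a call lost without either young library. Bgn, biglycan, was at 1299 and 1071 in young against 1799 and 1707 in aged mesangial cells (0.68, adjusted p = 0.0493 by edgeR), and this call was lost with DESeq2's size factors and without either young library. In smooth muscle and renin cells Bgn rose from 337 and 304 to 839 and 904 (1.49, 0.18, adjusted p = 0.000591 by edgeR). Vwf, von Willebrand factor, which ADAMTS13 cuts, rose in endothelial cells from 1.28 and 1.05 to 6.85 and 5.20 (2.45, 0.39, adjusted p = 0.000125 by edgeR). Igfbp5 fell there from 3962 and 4945 to 2567 and 2538 (-0.67, 0.19, adjusted p = 0.0299 by edgeR), a call lost without either aged library. Bgn also passed in endothelial cells, at under 10% of its mesangial level, and is not described there. Without the filter on low counts, Vwf was the only one of the named endothelial genes outside the 8 to pass.

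Other members of both families were scarce. Of 13 further ADAMTS proteases, 4 were tested in endothelial cells, of which Adamts16 fell from 10.9 and 17.5 CPM to 7.51 and 6.33 (log2 difference -0.86, standard error 0.23, adjusted p = 0.0208 by edgeR), and was -0.57 and did not pass without young replicate 2. It also did not pass without aged replicate 2, at -0.74, or with DESeq2. Adamts12 in mesangial cells had 6.36 and 3.81 against 1.88 and 1.46 and did not pass (adjusted p = 0.125 by edgeR). Comp was the only further thrombospondin tested, in podocytes, at 8.18 to 13.6, and it did not pass (adjusted p = 0.691 by edgeR). Of 7 ADAMTS-like genes, 2 or 3 were tested in podocytes, endothelial, mesangial and smooth muscle and renin cells, and none passed. In all, 1 of 27 pathway genes tested in podocytes passed, 9 of 38 in endothelial cells, 6 of 34 in mesangial cells, 0 of 21 in cluster 23 (3 at an unadjusted p under 0.05 by edgeR, and 0 by DESeq2) and 1 of 20 in smooth muscle and renin cells, where 6.03%, 6.68%, 5.21%, 3.97% and 1.03% of all genes passed. Since the lists were chosen with earlier results known, nothing is read from these counts.

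**Figure D5:**
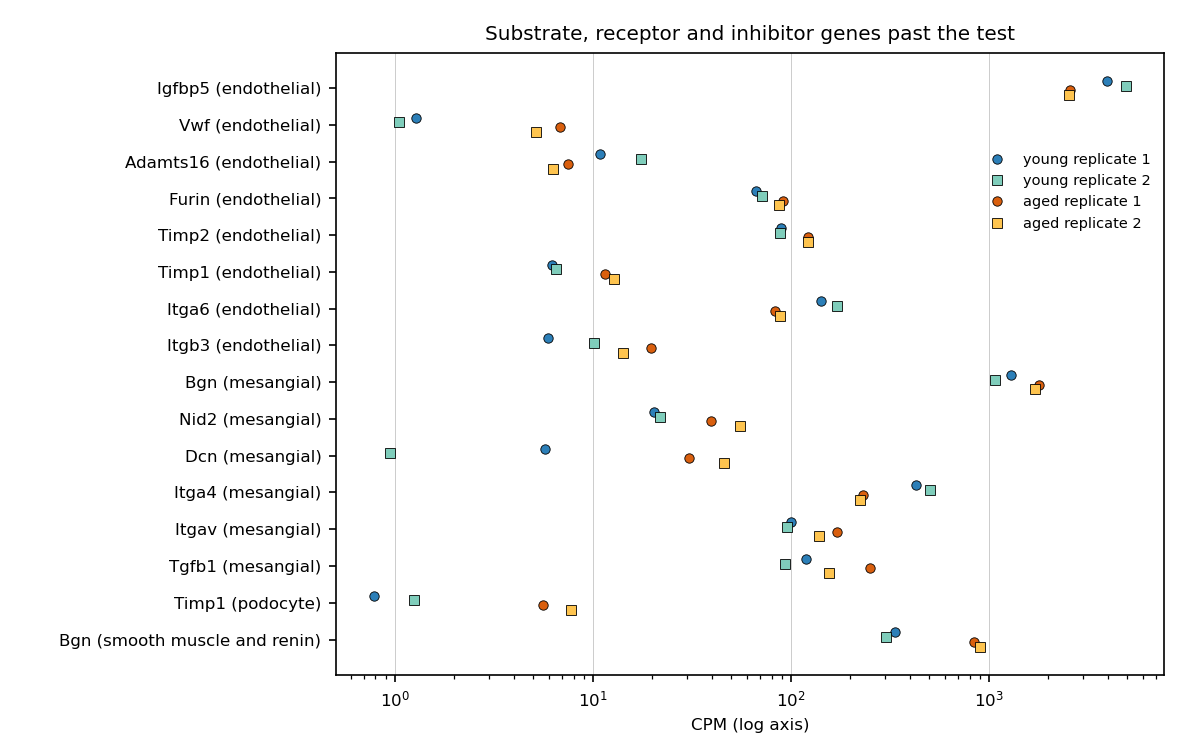
Levels (horizontal axis, CPM, log axis) of the named receptor, inhibitor, substrate and related genes in the cell class given in brackets, 1 point per library. In every row the 2 aged points lie on one side of the 2 young points.

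Patterns across classes were compared over 38 sums, each a class in a library with at least 20 cells, of 11 classes, on the log2 scale. The sums of one library share its depth and the 4 sums of a class share its cell type, so the coefficients describe this set only. Of 13047 genes, those most like Thbs1 were Cib2 (Pearson r 0.89) and Cebpb (0.85), those most like Thbs2 were Lama4 (0.91) and Gja4 (0.90), and those most like Adamts1 were Tcaf1 (0.94) and Fstl1 (0.93). Adamts5 was closest to Bgn (0.93) and Nid1 (0.91), both matrix components of the mesangium, and Adamts4 to Pcp4l1 (0.92) and Snai2 (0.89). Adamts9 was closest to Adcy6 and Mb21d2 (both 0.90), and Adamts2 to Rerg (0.94) and Col6a3 (0.93). Among the 8 genes themselves, Adamts1 was nearest to its chromosomal neighbour Adamts5 (0.84) and to Adamts9 (0.83), and Thbs1 had coefficients of -0.07 to 0.28 with the other 7.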

How the data were processed

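The deposited files hold counts: raw UMI counts per gene and barcode, 1 matrix per library, with no barcode under 500 UMIs. Per the submitters' processing notes, Cell Ranger 6.0.1 and Partek were used with GRCm38, and the labels' protocol names another Cell Ranger version, so the version is not settled. Barcodes with at least 500 genes and at most 20% mitochondrial UMIs were kept (29876), and 1876 (6.28%) were removed as doublets by Scrublet score at 0.8% per 1000 barcodes, because the automatic threshold marked 134 (0.449%). Cells were clustered with scanpy 1.11.5 and leidenalg 0.10.2 (2000 variable genes, 30 components, 15 neighbours, resolution 2, set after the data were seen). A cluster got the class whose median marker level was at least 0.35 of the best cluster; clusters and cells with an unrelated class at 0.25 were left out. These thresholds were set after the data were seen. UMIs summed per class and library were fitted with edgeR 4.0.16 (TMM, filterByExpr, quasi-likelihood test, Benjamini-Hochberg over all genes of the class, threshold 0.05). The script was tested on simulated data, with counts drawn at a fixed spread and not at the spread of these libraries. Over the classes, 13.0% to 29.8% of log2 differences of 1 were recovered, and 85.6% to 97.2% of those of 2. A gene that did not pass may therefore still differ. The 8 genes, the lists and the marker genes were chosen with earlier results of these data known. Named genes were the 8 genes, up to 3 passing genes per list, class and direction, and the 2 genes most like each member. Alternatives were DESeq2 1.42.0, its size factors, no filter, a mitochondrial limit of 10%, doublets kept, mixed cells kept, members among the clustering genes, a replicate block and each library left out.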

Additional observations from a re-analysis of the deposited data

Results flagged for a closer look

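The same gene lay on opposite sides in different cell classes for 4 of the 8 genes: in 1 class both aged libraries were above both young ones, and in another both were below. These differences between classes were not tested. Within a class, 15.1% to 23.6% of all genes tested had both aged libraries above both young ones, and 23.0% to 37.2% had both below. The share of all genes on opposite sides in different classes was not counted, so nothing is read from the number of genes here. For Adamts9 the log2 difference, aged minus young, was 2.41 in mesangial cells and -0.69 in podocytes, 3.10 apart. Thbs2 had 2.04 in mesangial cells, on 89 UMIs, and -0.77 in endothelial cells, 2.81 apart. Its young mesangial levels were 2.29% and 6.48% of the endothelial ones, below the 9.59% and 10.2% of the endothelial markers. Adamts5 had 1.08 in cluster 23 and -1.21 in podocytes, 2.29 apart. The podocyte value rests on 56 UMIs and was -0.34 without young replicate 2 and -2.04 without young replicate 1. Adamts1 had 1.32 in podocytes and -0.27 in endothelial cells, 1.59 apart.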

How the results depend on the processing

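Of 310 recomputed log2 differences of the 8 genes, 267 moved by less than the spread between libraries and kept their sign. The other 43 moved further or changed sign, and no gene past the threshold changed sign. The spread was the root of the mean variance within the 2 groups. Leaving out 1 of 2 libraries shifts a difference by about that much at most. For those fits the count is therefore no measure of stability. Thbs1 in mesangial cells had log2 differences of 2.58 to 3.69 over the 12 alternatives. Adamts1 in podocytes did not pass under the mitochondrial limit of 10%. Endothelial Thbs2 and Adamts4 did not pass without aged replicate 1 (-0.48 and 0.57), Adamts5 without aged replicate 2 (-0.45), and none of the 4 endothelial genes without the filter on low counts. In cluster 23, Adamts1 did not pass under 3 alternatives and Adamts5 under 5, among them doublets kept. Genes called numbered 655 in podocytes, 871 in endothelial cells, 548 in mesangial cells, 125 in cluster 23 and 37 in smooth muscle and renin cells, and pathway genes 1, 9, 6, 0 and 1. A group left with 1 library is assumed to vary like the other group. Leaving out 1 library gave 301 to 534, 497 to 1042, 110 to 1829, 0 to 132 and 26 to 101 genes, and 1 to 2, 5 to 11, 1 to 14, 0 to 1 and 1 to 2 pathway genes. DESeq2 called 266, 494, 365, 33 and 19 genes. With no filter on low counts, 79 endothelial, 1228 mesangial and 101 smooth muscle genes passed, and 3 podocyte, 2 endothelial and 1 cluster 23 pathway genes. The mitochondrial limit of 10% gave 317 podocyte and 9 cluster 23 genes. Doublets kept gave 3 podocyte pathway genes, 0 cluster 23 genes and 57 smooth muscle genes. Mixed cells kept gave 1629 mesangial, 482 cluster 23 and 56 smooth muscle genes, and 17, 3 and 2 pathway genes. The 8 genes kept in the clustering gave 2 podocyte pathway genes and 112 smooth muscle genes. The cause of these changes was not tested.

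Same-numbered libraries of the 2 groups deviated from their group means with correlations of -0.08 to 0.10 over genes, so the labels' numbers were taken as names only. With the replicate block, 866 podocyte, 1302 endothelial, 1267 mesangial, 92 cluster 23 and 32 smooth muscle genes passed, and 3, 12, 10, 1 and 1 pathway genes. The counts per class, 1.03% to 6.68% of genes in the main fit, rest on 2 libraries per group, and levels near 1 CPM on a handful of UMIs.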

Other observations

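Cells outside the named classes also held these genes. Cluster 18, led by Clec4e, Itgal, Ace and Spn, fell short of the marker level for a name and had Thbs1 at 201 and 479 CPM in young against 246 and 245 in aged libraries, on 19 to 217 UMIs, below the levels of the monocyte and dendritic class. Cluster 34, with 73 cells, all of aged replicate 2, and Serpina3g, Sox9 and Spink8 among its leading genes, had Adamts5 at 859, Adamts1 at 616 and Thbs1 at 171. Cluster 13, mostly cells of young replicate 2 with mesangial and endothelial markers together, had Adamts5 at 1207, Adamts1 at 634 and Thbs1 at 43.4.

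Adamtsl1, an ADAMTS-like gene without a protease domain, had 160 and 145 CPM in young against 73.1 and 73.7 in aged smooth muscle and renin cells, and did not pass (adjusted p = 0.175 by edgeR's quasi-likelihood test).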
